A study of Homo sapiens with 4 samples.

Results

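TINAGL1, TENM3, FYB1, CCR7, CBLB, LGALS3, SP6, PGF and MPP1 are 9 genes that the study counts among its markers of polar trophectoderm (pTE), the part of the blastocyst's outer layer that lies over the epiblast (Epi). They were chosen by name, as 9 of the 25 genes of the study's polar list and 9 of the 36601 genes measured, and each symbol matched 1 gene in both libraries. The rule names the genes and uses no value measured here, but it was set with earlier results of these data known. The study had also reported, from these same cells, a stronger signature of the polar list relative to a mural list after treatment. Counts of the 9 genes called by dose are therefore not independent of that report. The study took the polar list from human embryo data, as genes of an NR2F2 expression module that were higher in NR2F2-positive than in NR2F2-negative trophectoderm, so expression alongside NR2F2 is part of how the genes came to be listed.

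H9 is an established human embryonic stem cell line, used here in the naive state. Naive H9 cells were aggregated in microwells and guided to blastoids, which are stem-cell models of the blastocyst, with 4 mM or 0 mM dimethyl α-ketoglutarate (dm-αKG), a cell-permeable form of the metabolite α-ketoglutarate, present for the first 40 h. Blastoids were taken at 120 h and aggregates at 40 h. Each culture carried 1 hashtag antibody, and cultures were pooled before capture on the 10x Genomics platform. Run 1 held blastoids and aggregates and run 2 only blastoids, each kind at 4 mM and at 0 mM. An arm is 1 hashtagged culture in 1 run, so each dose has 2 arms of blastoids but a single arm of aggregates, all from 1 cell line. Only blastoids with a single cavity were picked by hand, and the study notes that trophectoderm cells are lost more readily than others when blastoids are dissociated, so the share of cells in each class is not a measure of the blastoids.

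Polar trophectoderm is the side by which the human blastocyst attaches, and it is the source of the later trophoblast lineages of the placenta, whereas mural trophectoderm lines the cavity. The 9 genes have no common pathway. TINAGL1, PGF and LGALS3 encode secreted proteins, TENM3 and CCR7 sit in the plasma membrane, FYB1, CBLB and MPP1 act beneath it as adaptor, ubiquitin ligase and scaffold, and SP6 is a transcription factor. CCR7 and FYB1 are best known from immune cells.

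After removal of hashtag doublets, unassigned barcodes and low-quality cells, 12647 cells remained, of which 10392 were blastoid and 2255 aggregate cells. A blastoid cell was called TE-like when its unique molecular identifiers (UMIs, each 1 captured transcript) from KRT8, KRT18, GATA3 and CLDN4 outnumbered those from POU5F1, DPPA5, DPPA4, L1TD1 and TDGF1, and Epi-like otherwise. This gave 418 TE-like and 9974 Epi-like cells, with 20 and 27 of them within 40 to 60% of the division between the classes. TE-like cells numbered 49 and 170 in the 4 mM arms of run 1 and run 2, against 18 and 181 in the 0 mM arms. Their sums held 1614724 and 2951739 UMIs at 4 mM, against 456611 and 2981693 UMIs at 0 mM, so the run 1 arm at 0 mM is by far the shallowest. The median TE-like cell had 31693 and 16472 UMIs at 4 mM, against 25490.5 and 15841 UMIs at 0 mM. The 2 libraries share 28 cell barcodes, 8 of them among kept cells.

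Trophectoderm and epiblast markers that did not define the classes fitted the names. A list of 12 further trophectoderm markers summed to 1350 to 2250 CPM (the usual unit for counts scaled to the total UMIs of a sum) in the TE-like sums, against 208 to 217 CPM in the Epi-like sums. A list of 10 epiblast markers gave 107 to 298 CPM in TE-like and 962 to 1120 CPM in Epi-like sums. Within TE-like cells these lists also differed by dose. Trophectoderm markers summed to 2250 and 1940 CPM at 4 mM, against 1350 and 1470 CPM at 0 mM, and the epiblast list to 107 and 231 CPM at 4 mM, against 191 and 298 CPM at 0 mM. Within the epiblast list DNMT3L stood at 66.9 and 102 CPM at 4 mM, against 136 and 143 CPM at 0 mM, and at 81.9 to 102 CPM in Epi-like sums, so it was not a marker of Epi-like cells here. NANOG ran the other way, at 4.95 and 21.7 CPM at 4 mM, against 4.38 and 17.8 CPM at 0 mM, as did SOX2 and KLF17. The median TE-like cell held 1 POU5F1 UMI in both 4 mM arms, against 5.5 and 3 in the 0 mM arms of run 1 and run 2. A list of 10 primitive endoderm markers summed to 35.9 and 34.6 CPM in the TE-like cells of run 1 and run 2 at 4 mM, against 76.7 and 11.4 CPM at 0 mM, with 27 to 30.2 CPM in the Epi-like sums. In the run 1 TE-like arm at 0 mM, which has 18 cells, FOXA2 stood at 11 CPM, SOX17 and GATA4 at 8.76 CPM each and APOA1 at 6.57 CPM, and FOXA2 was at 0 in both run 2 TE-like sums. What part these differences have in the dose results was not tested. Lists of 6 amnion and 8 extra-embryonic mesoderm markers were lower in TE-like sums (12.4 to 21.9 CPM and 0 to 8.47 CPM) than in Epi-like sums (26.8 to 29.4 CPM and 25.6 to 35.4 CPM). A list of 8 immune cell markers summed to 1.69 to 3.69 CPM, with PTPRC, CD3E, LCP2 and CD2 at 0 in every TE-like sum.

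The 9 genes are scattered over the genome (GRCh38, with the gene spans of the reference annotation). TINAGL1 spans chr1:31576485-31587686 on the plus strand, TENM3 chr4:182143987-182803024 (plus), FYB1 chr5:39105252-39274528 (minus), CCR7 chr17:40553769-40565472 (minus), CBLB chr3:105655461-105869552 (minus), LGALS3 chr14:55124110-55145423 (plus), SP6 chr17:47844908-47855874 (minus), PGF chr14:74941834-74955626 (minus) and MPP1 chrX:154778684-154821007 (minus). Only TINAGL1 and TENM3 overlap another gene of the annotation on the same strand. The one that overlaps TINAGL1, LINC01226, gave at most 4.38 CPM (2 UMIs) in any TE-like sum, and the one that overlaps TENM3 has no gene symbol.

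Start-site sequence is shown for the 3 secreted or membrane genes of the set that changed with the dose in TE-like cells and whose RefSeq window lies mostly outside annotated exons. Where RefSeq gives several starts, the one nearest to the annotated gene start was used. LGALS3 has 1 RefSeq start, 5142 bases from the annotated gene start, so its window lies inside the annotated gene span. Each line gives the bases of the window that precede the annotated exon, 5′ to 3′ on the gene's strand, at chr1:31576265-31576484, chr4:182143713-182143962 and chr14:55129002-55129251 of GRCh38.p14.
TINAGL1: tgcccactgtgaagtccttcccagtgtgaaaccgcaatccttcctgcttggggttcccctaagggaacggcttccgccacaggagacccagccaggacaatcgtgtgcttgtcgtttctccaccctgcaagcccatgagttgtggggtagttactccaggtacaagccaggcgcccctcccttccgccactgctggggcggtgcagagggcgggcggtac
TENM3: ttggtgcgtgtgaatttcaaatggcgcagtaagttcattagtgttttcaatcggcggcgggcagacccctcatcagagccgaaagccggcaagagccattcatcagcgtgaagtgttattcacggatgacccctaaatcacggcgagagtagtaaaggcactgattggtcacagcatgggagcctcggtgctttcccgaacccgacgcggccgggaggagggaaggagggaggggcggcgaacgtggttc
LGALS3: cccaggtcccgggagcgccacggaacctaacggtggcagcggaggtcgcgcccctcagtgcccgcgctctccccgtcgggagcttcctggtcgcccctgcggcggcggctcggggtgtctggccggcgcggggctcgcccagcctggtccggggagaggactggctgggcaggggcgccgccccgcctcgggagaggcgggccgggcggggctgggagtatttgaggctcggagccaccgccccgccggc
The full windows of 250 bases hold 14, 20 and 32 CpG pairs and have a GC content of 62.4, 56.8 and 78.8%. Of the 9 genes, 7 have a RefSeq window, and CCR7 and SP6 have none in the table used. With 1 window per gene, none of the 7 held GGAATG, the core letters of the TEAD motif, found in 11.9% of 34943 windows of that length, nor AGGTCA, a nuclear receptor half-site, found in 12.1% of them. AGATAA, the GATA motif, occurred in the FYB1 and MPP1 windows (9.19% of all windows), and GCCNNNGGC, the TFAP2 motif, in that of MPP1 (19.7% of all windows). The FYB1 matches lie in bases annotated as exon, which make up 179 of the 250 bases of that window. The RefSeq starts used lie 3879 bases (FYB1) and 15522 bases (MPP1) from the annotated gene starts. The windows of other RefSeq starts of TINAGL1 and FYB1 each hold 1 GGAATG, and that of TINAGL1 also 1 AGATAA. Both strands were searched, and a match or its absence describes the letters only.

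Over the 4 arms together all 9 genes were higher in TE-like than in Epi-like cells, but in the 0 mM arms LGALS3 (both runs) and TENM3 (run 1) stood below their Epi-like level, within counting error. In a fit over 8 sums with the arm in the model (edgeR, Benjamini-Hochberg adjusted p under 0.05 over all genes), 9 of 9 passed as higher in TE-like cells, against 22.5% of 13165 genes tested, and the median log2 difference of the 9 was 4.37, against -0.05 over all genes tested. The sizes ranged from a log2 difference of 0.96 for LGALS3 to 9.10 for FYB1. All 4 TE-like sums lay above all 4 Epi-like sums for 6 of the 9 (TINAGL1, FYB1, CBLB, SP6, PGF and MPP1), against 11.6% of all genes tested.

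FYB1 and CCR7 were nearly confined to TE-like cells. TE-like cells held 4.09% of blastoid UMIs but 96.8% of the FYB1 UMIs (60, against 2 in Epi-like cells) and 94.1% of the CCR7 UMIs (96, against 6). FYB1 encodes an adaptor that links T cell receptor signalling to integrins, and CCR7 the receptor for the chemokines CCL19 and CCL21. The edgeR log2 differences of TE-like over Epi-like cells were 9.10 ± 0.68 for FYB1 (SE, adjusted p = 7.38e-10) and 8.64 ± 0.57 for CCR7 (adjusted p = 2.08e-10), and both are uncertain in size because 2 of the 4 Epi-like sums held no FYB1 UMI and 3 held no CCR7 UMI. CCR7 overlapped between the classes through 1 sum, the run 1 TE-like arm at 0 mM, which had none.

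TINAGL1 and SP6 were also largely TE-like genes, with 80.1% and 70.1% of their blastoid UMIs in TE-like cells. TINAGL1 encodes a matricellular protein related to tubulointerstitial nephritis antigen, and SP6 a zinc-finger factor of the Sp family. TINAGL1 ranged from 24.1 to 100 CPM over the TE-like sums and from 0.338 to 0.829 CPM over the Epi-like sums, a log2 difference of 6.75 ± 0.25 (SE, edgeR adjusted p = 1.08e-14). SP6 ranged from 2.19 to 38.4 CPM in TE-like and from 0.247 to 0.455 CPM in Epi-like sums (log2 5.92 ± 0.39, adjusted p = 1.05e-10).

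PGF, CBLB and MPP1 also gave a few CPM in Epi-like cells. PGF encodes placental growth factor, a ligand of the receptor FLT1, CBLB a ubiquitin ligase that restrains receptor signalling, and MPP1 a membrane-associated guanylate kinase known from red blood cells. PGF stood at 2.03 to 3.25 CPM in Epi-like sums, CBLB at 3.33 to 3.98 CPM and MPP1 at 1.30 to 1.84 CPM. Their log2 differences were 4.37 ± 0.21, 3.70 ± 0.22 and 2.95 ± 0.35 (SE), with edgeR adjusted p of 6.97e-13, 1.58e-11 and 6.18e-07. TE-like cells held 43.6% of the PGF, 32.8% of the CBLB and 22.1% of the MPP1 UMIs of all blastoid cells. Over all arms the Epi-like level was 5.53% of the TE-like level for PGF, 8.75% for CBLB and 15.1% for MPP1, against 0.142% for FYB1, 0.267% for CCR7, 1.06% for TINAGL1 and 1.82% for SP6. The deposited matrices used here hold called cells only, so the part of free RNA in these low levels was not tested.

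TENM3, a teneurin that binds latrophilins on other cells, and LGALS3, galectin-3, a lectin that binds β-galactosides, differed least between the classes. TE-like cells held 6.97% of the TENM3 and 6.77% of the LGALS3 UMIs. For LGALS3 the ratio of TE-like to Epi-like CPM was 2.61 (95% interval 1.82 to 3.66) and 2.39 (1.84 to 3.06) in the 4 mM arms of run 1 and run 2, against 0.237 (0.00596 to 1.35) and 0.856 (0.565 to 1.25) in the 0 mM arms. TENM3 gave ratios of 2.01 (1.52 to 2.60) and 2.16 (1.76 to 2.62) at 4 mM, against 0.804 (0.258 to 1.92) and 1.26 (0.952 to 1.65) at 0 mM. In the 4 mM arms both genes were higher in TE-like cells, while in the 0 mM arms every interval included 1. These intervals, like all others given here for single arms or runs, cover counting error only. Over all 8 sums the log2 differences were 0.99 ± 0.17 for TENM3 (SE, edgeR adjusted p = 5.05e-05) and 0.96 ± 0.26 for LGALS3 (adjusted p = 0.00428). Without the run 2 arm at 4 mM the LGALS3 difference was 0.61 and its adjusted p 0.159, and DESeq2 gave it an adjusted p of 0.184. Within run 1 alone it was 1.02 (edgeR adjusted p = 0.106) and within run 2 alone 0.85 (0.0285).

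**Figure D1:**
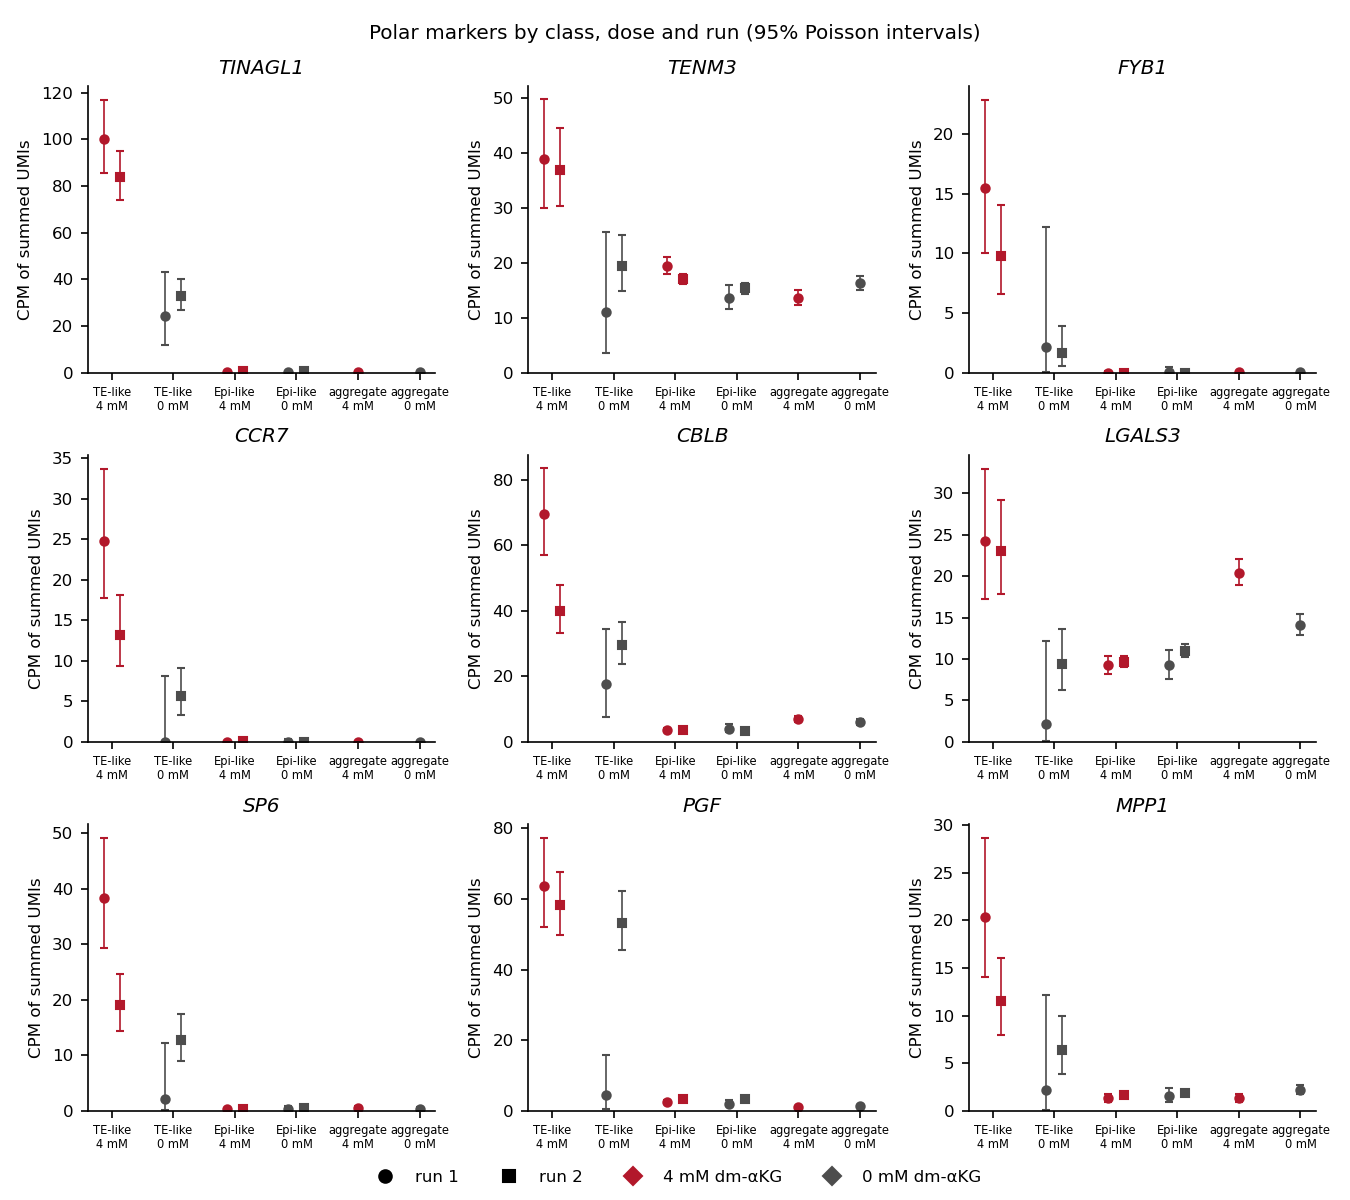
Level of each of the 9 genes in each sum of cells, in CPM on linear axes that start at 0 and differ between panels; each point is 1 arm and class with its exact 95% Poisson interval, circles for run 1 and squares for run 2, 4 mM left of 0 mM. TINAGL1 sits at 100 and 84.0 CPM in the 4 mM TE-like arms, against 24.1 and 32.9 CPM in the 0 mM TE-like arms, and at 0.338 to 0.829 CPM in Epi-like arms.

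The remaining 16 genes of the polar list followed the same pattern between classes, with 12 of 13 tested higher in TE-like cells. The 6 with the largest log2 differences were VGLL1 (9.22), a co-factor of TEAD factors, CCKBR (8.67), a gastrin and cholecystokinin receptor, the nuclear receptor NR2F2 (8.11), the steroid enzymes CYP19A1 (6.59) and CYP11A1 (6.24), and the mucin MUC15 (6.17). Of the study's 25 mural genes, 24 were tested, and 20 (83.3%) were higher and 1 (4.17%) lower in TE-like cells. A higher level in TE-like cells is thus not particular to the polar genes. Of 64 relatives and binding partners of the 9 genes, 51 were tested, and 20 were higher and 15 lower in TE-like cells, or 39.2% and 29.4%, against 22.5% and 25.7% of all genes tested. The laminin genes LAMB1 and LAMA1 (log2 3.53 and 3.16), whose products build basement membranes, LGALS9 (3.42), which encodes another galectin, and SH3KBP1 (2.87), which encodes a partner of CBL proteins, were higher, whereas KDR (-4.52), a receptor for vascular endothelial growth factors, and MPP2 (-2.83), a relative of MPP1, were lower.

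In TE-like cells, all 9 genes stood higher in both 4 mM arms than in both 0 mM arms, a separation seen in 21.6% of the 9104 genes tested. TINAGL1, TENM3, FYB1 and LGALS3 passed the test as higher at 4 mM, and CCR7, CBLB, SP6, PGF and MPP1 did not. That is 4 of 9 called higher, against 0.648% of all genes tested (edgeR, run in the model, 4 sums and 1 residual degree of freedom). The median log2 change of the 9 was 1.21, against 0.00 over all genes tested. The p-values rest on a spread between these 4 arms, each 1 culture of 1 run, that edgeR pools over genes. The pooled part weighed 26.3 degrees of freedom, against 1 from the gene itself. The p-values thus hardly measure a gene's own spread between arms. The run 1 arm at 0 mM is also the one with the highest primitive endoderm markers. Without it all 9 log2 changes stayed above 0, at 0.95 for TENM3 and 0.18 for PGF. This fit had no run term, like every dose fit within a class with an arm left out. Its values thus mix loss of the arm with loss of the run term. The genes called were then not the same, since TENM3 was lost and CCR7 was gained.

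TINAGL1 gave 100 CPM (162 UMIs) and 84.0 CPM (248 UMIs) in the 4 mM arms of run 1 and run 2, against 24.1 CPM (11 UMIs) and 32.9 CPM (98 UMIs) in the 0 mM arms. The level was high in both 4 mM arms, and the groups did not overlap. The ratio of 4 mM over 0 mM was 4.16 (95% interval 2.27 to 8.51) in run 1 and 2.56 (2.02 to 3.26) in run 2. In the fit over both runs the log2 change was 1.51 ± 0.21 (SE, edgeR adjusted p = 7.68e-05), and it passed with each of the 4 arms left out in turn (log2 1.43 to 1.89). In the run 1 arm at 0 mM, 9 of the 11 UMIs came from 1 cell.

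TENM3 gave 39.0 CPM (63 UMIs) and 36.9 CPM (109 UMIs) at 4 mM, against 11 CPM (5 UMIs) and 19.5 CPM (58 UMIs) at 0 mM, with no overlap. The log2 change was 1.08 ± 0.27 (SE, edgeR adjusted p = 0.0302). The call did not hold with any of the 4 arms left out: the log2 change was 0.95 without the run 1 arm and 1.75 without the run 2 arm at 0 mM, and 1.04 and 1.13 without the 4 mM arms, with adjusted p from 0.058 to 0.286. TENM3 is also the one member called higher at 4 mM in Epi-like cells.

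LGALS3 gave 24.2 CPM (39 UMIs) and 23.0 CPM (68 UMIs) at 4 mM, against 2.19 CPM (1 UMI) and 9.39 CPM (28 UMIs) at 0 mM. The 4 mM arms of the 2 runs were close to each other, and the 0 mM arms lower and further apart. The log2 change was 1.53 ± 0.35 (SE, edgeR adjusted p = 0.0175). Without the run 1 arm at 4 mM it was 1.47 with an adjusted p of 0.095, and without the run 2 arm at 0 mM it was 3.35 with an adjusted p of 0.148.

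FYB1 gave 15.5 CPM (25 UMIs) and 9.82 CPM (29 UMIs) at 4 mM, against 2.19 CPM (1 UMI) and 1.68 CPM (5 UMIs) at 0 mM. It had the largest fitted change of the 9, at a log2 of 2.55 ± 0.56 (SE, edgeR adjusted p = 0.0116), on few UMIs: the ratio was 7.07 (95% interval 1.16 to 290) in run 1 and 5.86 (2.24 to 19.4) in run 2. Without the run 1 arm at 4 mM the adjusted p was 0.246, and without the run 2 arm at 0 mM it was 0.532, at log2 changes of 2.43 and 2.40.

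CCR7 gave 24.8 CPM (40 UMIs) and 13.2 CPM (39 UMIs) at 4 mM, against 0 UMIs and 5.70 CPM (17 UMIs) at 0 mM. In run 1 the exact 95% lower limit of the ratio of 4 mM over 0 mM was 2.93. The observed 4 mM level was 3.77 times the level that 3 counts would give in the 0 mM arm, 6.57 CPM. In run 2 the ratio was 2.32 (95% interval 1.28 to 4.37). The fit gave a log2 change of 1.67 ± 0.44 (SE, edgeR adjusted p = 0.0525), just short of the threshold. It passed without the run 1 arm at 0 mM (log2 1.65, adjusted p = 0.0441) and without the run 2 arm at 4 mM (2.34, adjusted p = 0.000409), but not without the run 1 arm at 4 mM (1.44, adjusted p = 0.493) or the run 2 arm at 0 mM (7.92, adjusted p = 0.211).

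PGF differed by dose in run 1, while in run 2 the interval of its ratio included 1. It gave 63.8 CPM (103 UMIs) and 58.3 CPM (172 UMIs) at 4 mM, against 4.38 CPM (2 UMIs) and 53.3 CPM (159 UMIs) at 0 mM. Both 4 mM arms were alike, while the 0 mM arms lay far apart. The ratio was 14.6 (95% interval 3.93 to 122) in run 1 and 1.09 (0.876 to 1.36) in run 2, and the fitted log2 change of 0.63 ± 0.29 (SE) had an edgeR adjusted p of 0.498. In the run 2 arm at 0 mM, 69 of the 159 UMIs (43.4%) came from 1 cell, and 67.3% from 3 cells. The run 2 log2 ratio of 4 mM over 0 mM was 0.13 with all cells, 0.71 without the top cell of each arm and 1.25 without the top 3. The fit passed without the run 2 arm at 0 mM (log2 3.74, adjusted p = 0.00581) but with none of the other arms left out, where the log2 change was 0.18 without the run 1 arm at 0 mM, and 0.51 and 0.65 without the 4 mM arms (adjusted p of 0.465 or above).

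CBLB gave 69.4 CPM (112 UMIs) and 40.0 CPM (118 UMIs) at 4 mM, against 17.5 CPM (8 UMIs) and 29.5 CPM (88 UMIs) at 0 mM, a log2 change of 0.80 ± 0.25 (SE, edgeR adjusted p = 0.14). SP6 gave 38.4 CPM (62 UMIs) and 19 CPM (56 UMIs) at 4 mM, against 2.19 CPM (1 UMI) and 12.7 CPM (38 UMIs) at 0 mM, a log2 change of 1.10 ± 0.36 (adjusted p = 0.181). MPP1 gave 20.4 CPM (33 UMIs) and 11.5 CPM (34 UMIs) at 4 mM, against 2.19 CPM (1 UMI) and 6.37 CPM (19 UMIs) at 0 mM, a log2 change of 1.21 ± 0.42 (adjusted p = 0.21). All 3 had their highest level in the run 1 arm at 4 mM and their ratio was larger in run 1 than in run 2, at 3.96 and 1.35 for CBLB, 17.5 and 1.49 for SP6 and 9.33 and 1.81 for MPP1. Each passed in 1 of 4 fits with an arm left out, that without the run 2 arm at 4 mM, with log2 changes of 1.36, 1.82 and 1.82 and adjusted p of 0.00212, 0.00072 and 0.0133. In the other 3 the log2 change was 0.56 to 1.56 for CBLB, 0.78 to 3.56 for SP6 and 1.00 to 2.72 for MPP1, with adjusted p of 0.175 or above.

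**Figure D2:**
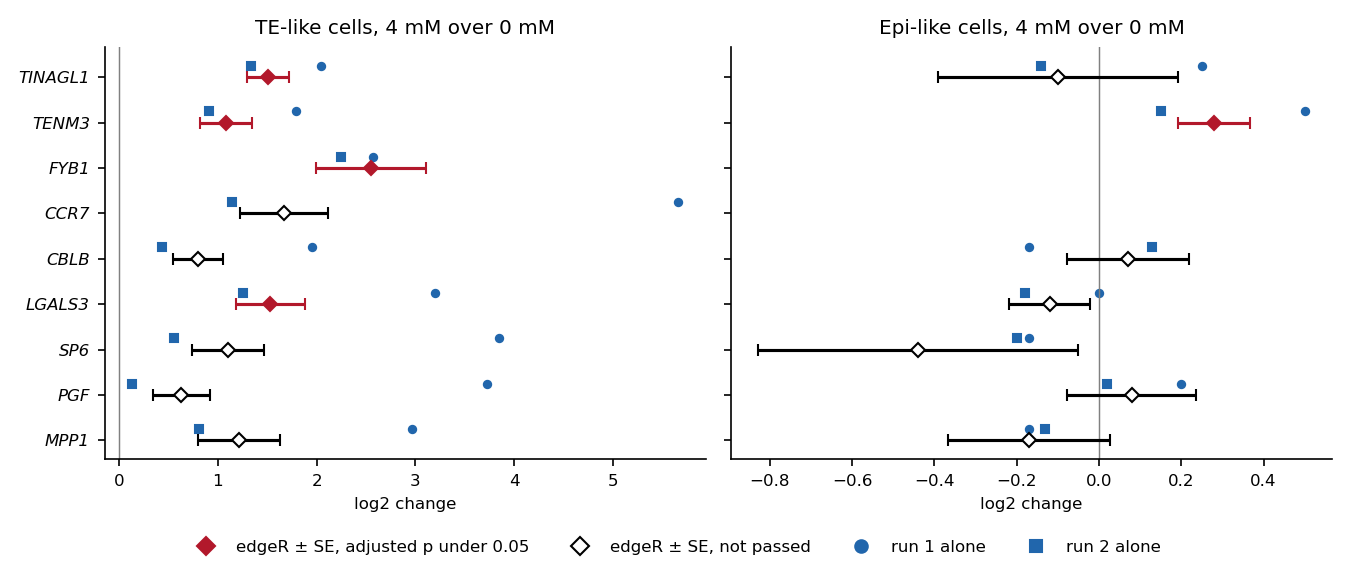
Log2 change of each gene at 4 mM over 0 mM in TE-like cells (left panel) and in Epi-like cells (right panel), on scales that differ between panels. Diamonds give the edgeR fit with 1 SE, red where the adjusted p is under 0.05, and blue points give log2 of the ratio of CPM + 0.5 within each run, which for CCR7 in run 1 depends on the added 0.5. In TE-like cells all 9 values lie above 0, from 0.63 for PGF to 2.55 for FYB1, while in Epi-like cells the 7 tested lie between -0.44 and 0.28.

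Summed over the 9 genes, the TE-like arms held 396 and 296 CPM at 4 mM, against 65.7 and 171 CPM at 0 mM. The ratio was 6.02 (95% interval 4.18 to 9.0) in run 1 and 1.73 (1.55 to 1.93) in run 2, or 5.41 and 2.02 without PGF. The other 16 polar genes summed to 927 and 635 CPM at 4 mM, against 280 and 346 CPM at 0 mM. Of these 16, 10 were tested, and NR2F2 (log2 1.70 ± 0.20, edgeR adjusted p = 6.16e-06), CCKBR (1.65 ± 0.20, 6.16e-06) and VGLL1 (1.01 ± 0.24, 0.02) rose at 4 mM, with a median log2 change of 0.56 over the 10. The study's list of 25 mural genes ran the other way, at 2780 and 2290 CPM at 4 mM, against 3230 and 2790 CPM at 0 mM, with 4 of 23 tested called lower, against 0.791% of all genes tested.

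Of 64 relatives and partners of the 9 genes, 37 were tested in TE-like cells, and 1 passed, as higher at 4 mM. That is 2.7%, against 0.648% of all genes tested, and rests on a single gene. It was LGALS1, which encodes galectin-1, with a log2 change of 0.94 ± 0.23 (SE, edgeR adjusted p = 0.0285). LGALS1 stood at 34.1 and 56.2 CPM at 4 mM, against 17.5 and 28.8 CPM at 0 mM. It was lower in all TE-like than in all Epi-like sums, which held 88.1 to 124 CPM.

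In Epi-like cells the 9 genes together summed to 36.6 and 36.5 CPM at 4 mM, against 31.1 and 36.0 CPM at 0 mM. FYB1 and CCR7 had too few UMIs to be tested, and of the other 7 only TENM3 passed, with 19.4 CPM (629 UMIs) and 17.1 CPM (1400 UMIs) at 4 mM, against 13.6 CPM (161 UMIs) and 15.4 CPM (948 UMIs) at 0 mM. Its log2 change was 0.28 ± 0.09 (SE, edgeR adjusted p = 0.0403), and 5.2% of 17014 genes tested were called higher in this class and 3.49% lower. The call was lost with each of the 4 arms left out, at log2 changes from 0.23 to 0.40 and adjusted p from 0.0929 to 0.861. The other 6 had log2 changes from -0.44 (SP6) to 0.08 (PGF), and SP6 alone had both 4 mM arms below both 0 mM arms, as 22.1% of all genes tested had.

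Among the relatives and partners, 54 were tested in Epi-like cells, and 8 were higher and 2 lower at 4 mM, or 14.8% and 3.7%, against 5.2% and 3.49% of all genes tested. The share called lower is near that of all genes. The teneurin TENM4 (log2 1.07 ± 0.33, SE, edgeR adjusted p = 0.0377) and FLRT2 (0.95 ± 0.12, 5.66e-07), which encodes a partner of latrophilins, were higher, as were KDR (0.62 ± 0.15, 0.0062) and SP4 (0.35 ± 0.08, 0.00274). NRP2, which encodes a co-receptor of vascular endothelial growth factors, and CBLC, a relative of CBLB, were lower at -0.44 ± 0.13 (0.0331) and -0.40 ± 0.10 (0.00893).

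The difference between the 2 dose effects was tested over all 8 sums. Here edgeR used only the spread pooled over genes, so the p-values give no weight to a gene's own spread between arms. It passed for TINAGL1, where the change in TE-like cells exceeded that in Epi-like cells by a log2 of 1.72 ± 0.41 (SE, edgeR adjusted p = 0.00677), and for LGALS3, by 1.69 ± 0.39 (adjusted p = 0.00343). That is 2 of 9 genes, against 0.387% of 13165 genes called higher. For TENM3 (0.82 ± 0.29, adjusted p = 0.276), CBLB (0.90 ± 0.34, 0.345), SP6 (1.76 ± 0.65, 0.31), MPP1 (1.66 ± 0.57, 0.214) and PGF (0.61 ± 0.32, 0.748) the difference did not pass. FYB1 (3.15 ± 2.79) and CCR7 (-1.67 ± 1.49) had too few UMIs in Epi-like cells for a useful estimate, with adjusted p of 0.981 for both. The TINAGL1 call was lost without the run 1 arm at 4 mM (1.49, adjusted p = 0.239) or the run 2 arm at 0 mM (1.16, 0.852). The LGALS3 call was lost without the run 1 arm at 4 mM (1.65, 0.0727), the run 1 arm at 0 mM (1.48, 0.0502) or the run 2 arm at 0 mM (3.53, 0.0727).

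In aggregates at 40 h, where 3 of 2255 cells had more trophectoderm than epiblast class UMIs, LGALS3 and TENM3 gave most of the UMIs of the set. CCR7 had no UMI in either arm, which allows up to 0.0975 CPM at 4 mM and 0.0831 CPM at 0 mM (3 counts), and FYB1 had 1 UMI in each. TINAGL1 had 7 UMIs at 4 mM and 12 at 0 mM, and the 9 genes summed to 43.9 CPM at 4 mM and 40.5 CPM at 0 mM. There was 1 arm per dose, so no test was made. LGALS3 stood at 20.4 CPM (629 UMIs) at 4 mM and 14.1 CPM (510 UMIs) at 0 mM, a ratio of 1.45 (95% interval 1.29 to 1.63).

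TENM3 went the other way in aggregates, with 13.6 CPM (418 UMIs) at 4 mM and 16.3 CPM (587 UMIs) at 0 mM, a ratio of 0.836 (0.735 to 0.949), as did MPP1, with 40 UMIs at 4 mM and 79 at 0 mM, a ratio of 0.594 (0.396 to 0.880). CBLB gave 6.86 CPM at 4 mM and 6.01 CPM at 0 mM, a ratio of 1.14 (0.940 to 1.39). Of the 6 genes with at least 10 UMIs in both arms, 2 were more than 1.4-fold higher (LGALS3 and SP6) and 1 more than 1.4-fold lower (MPP1), against 8.89% and 6.6% of 15324 genes. The ratios of SP6 (1.44, 0.651 to 3.26) and PGF (0.774, 0.467 to 1.26) had intervals that included 1.

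Shares of positive cells were compared after each cell was thinned at random to 5000 UMIs, since depth differed between arms. Every member was detected in a larger share of TE-like cells at 4 mM than at 0 mM in both runs, also without thinning. TINAGL1 was found in 36.7% and 25.3% of TE-like cells at 4 mM, against 11.1% and 11% at 0 mM, or in 77.6% and 51.2%, against 11.1% and 21.0%, without thinning. Epi-like cells gave 0.288% and 0.375% at 4 mM, against 0.49% and 0.323% at 0 mM, after thinning. TINAGL1 went undetected at this depth in most TE-like cells even at 4 mM, and its share in Epi-like cells shows no order by dose.

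PGF was found in 26.5% and 16.5% of thinned TE-like cells at 4 mM, against 5.56% and 7.18% at 0 mM, so that its share was higher at 4 mM in run 2 as well, where its summed level hardly differed. CCR7 was found in 16.3% and 5.29% at 4 mM, against 0 of 18 cells and 2.76% at 0 mM. CBLB was found in 18.4% and 18.8% at 4 mM, against 5.56% and 12.2%, and TENM3 in 14.3% and 15.3%, against 11.1% and 8.84%. In Epi-like arms PGF was found in 0.959% to 1.56% of cells, CBLB in 1.63% to 1.96%, CCR7 in at most 0.0208% and TENM3 in 5.64% to 9.3%.

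SP6 (12.2% and 10.6% of thinned TE-like cells at 4 mM, against 0 of 18 cells and 4.97% at 0 mM), MPP1 (12.2% and 6.47%, against 0 of 18 and 2.76%), LGALS3 (8.16% and 10.0%, against 5.56% and 2.76%) and FYB1 (6.12% and 3.53%, against 0 of 18 and 1.1%) were found in fewer cells. A count of 0 of 18 cells allows a share of up to 16.7% (3 cells). That is more than any of the thinned shares of CCR7, SP6, MPP1 and FYB1 at 4 mM. After thinning, the run 1 arms thus cannot show a difference for these 4. Without thinning, CCR7 was found in 38.8% of run 1 TE-like cells at 4 mM (95% interval 25.2% to 53.8%), against 0 of 18 (up to 18.5%). SP6 was then found in 53.1% (38.3% to 67.5%), against 5.56% (0.141% to 27.3%). In Epi-like arms LGALS3 was found in 4.57% to 5.15% of thinned cells, and SP6, MPP1 and FYB1 in at most 0.887%. The exact 95% binomial intervals of the thinned shares overlapped between doses for all 9 genes in run 1. In run 2 they stood apart for TINAGL1 alone, at 19% to 32.5% at 4 mM and 6.88% to 16.5% at 0 mM. Without thinning, the run 2 intervals stood apart for TINAGL1, TENM3, FYB1, CBLB, LGALS3 and PGF. The unthinned run 1 intervals stood apart for TINAGL1, CCR7, CBLB and SP6. They overlapped for the remaining genes of each run, and unthinned shares also carry differences in depth.

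**Figure D3:**
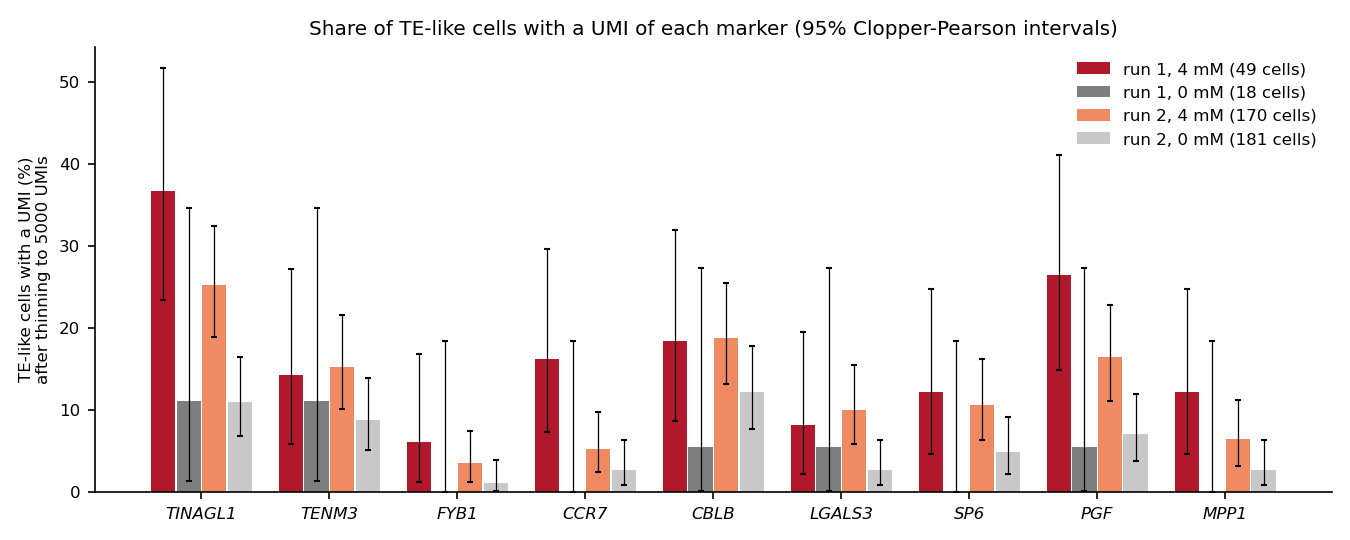
Share of cells with at least 1 UMI of each gene after thinning to 5000 UMIs per cell, in percent of TE-like cells with exact 95% binomial intervals, as bars for run 1 and then run 2, 4 mM left of 0 mM in each. Each gene lies higher at 4 mM in both runs, TINAGL1 at 36.7% and 25.3%, against 11.1% and 11%.

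Several of the 9 genes met in the same TE-like cells more often than their separate shares give. The expected number of cells with a pair was taken within each arm from the shares of the 2 genes, so that differences between doses and runs do not enter. After thinning, 25 of the 36 pairs were found together in more cells than expected, and the count summed over pairs was 257, against 162 expected. Without thinning it was 34 of 36 pairs and 1428, against 1030, where differences in depth between cells also raise the count. Pairs share cells and genes, so these counts are a description.

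After thinning, every pair among CCR7, SP6, PGF and TENM3 met in more cells than expected. FYB1 was above expectation with 7 of its 8 partners, on fewer cells. It met CCR7 in 3 cells (0.863 expected), PGF in 6 (1.93 expected) and SP6 in 3 (1.1 expected). CCR7 and PGF were found together in 14 cells (3.96 expected), CCR7 and TENM3 in 10 (2.96 expected), CCR7 and SP6 in 9 (2.18 expected) and SP6 and PGF in 12 (5.2 expected). TINAGL1 and PGF met in 23 cells (13.4 expected). LGALS3 and MPP1 stood apart, each with 2 of its 8 partners above expectation after thinning and 7 of 8 without it. Of the 22 thinned TE-like cells with a CCR7 UMI, 21 also held NR2F2 (11.6 expected), and TINAGL1 and NR2F2 met in 59 cells (39.5 expected).

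**Figure D4:**
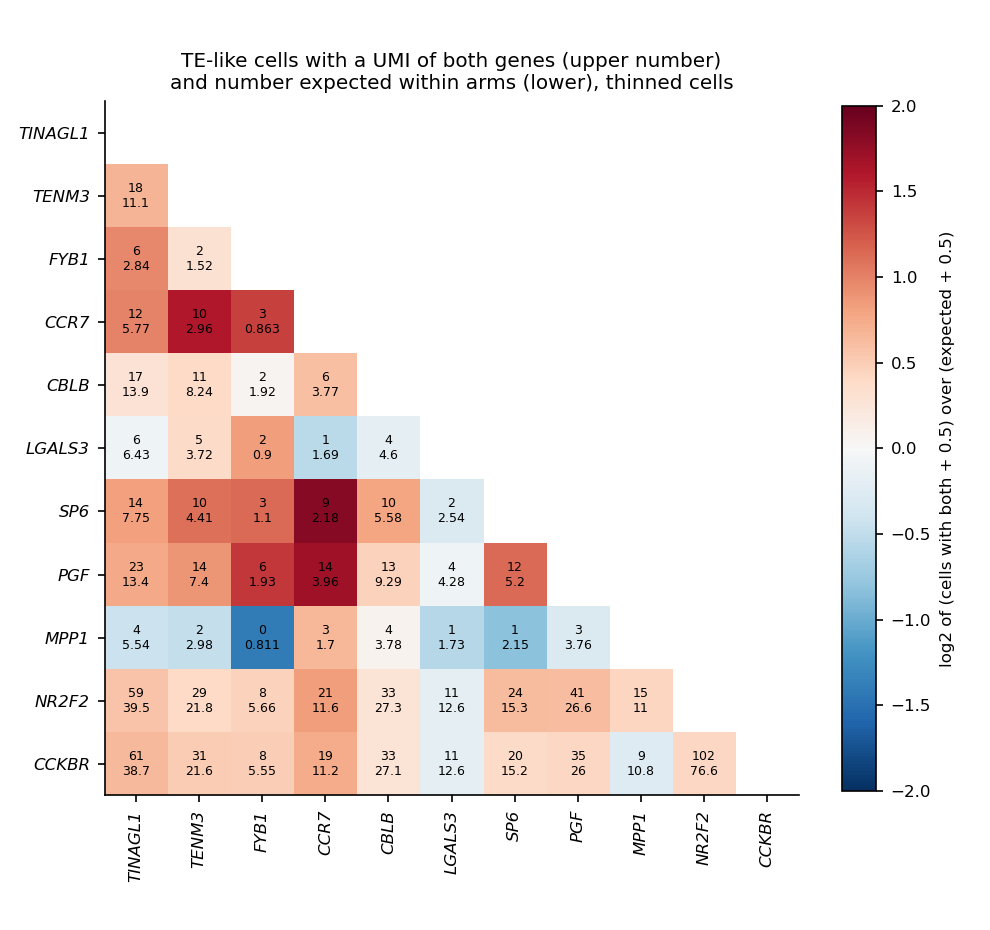
Number of thinned TE-like cells with UMIs of both genes of a pair (upper number) and the number expected from their shares within each arm (lower number), for the 9 genes, NR2F2 and CCKBR; colour gives the log2 ratio of the counts after adding 0.5 to each. Red cells gather around CCR7, SP6, PGF and TENM3, and also where FYB1 meets CCR7, PGF and SP6. Blue ones lie in the LGALS3 and MPP1 lines.

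Counted per cell, a thinned TE-like cell held on average 1.51 and 1.12 of the 9 genes at 4 mM, against 0.389 and 0.536 at 0 mM. At least 3 were found in 10 of 49 and 19 of 170 cells at 4 mM (20.4% and 11.2%), against 0 of 18 and 9 of 181 cells at 0 mM (4.97% in run 2). None was found in 34.7% of cells in both 4 mM arms, against 66.7% and 63.5% of cells at 0 mM. Over the 4 arms 38 cells held 3 or more (25.4 expected within arms), 17 held 4 or more (4.9 expected) and 203 held none (174 expected). The unthinned counts were 146 cells with 3 or more (153 expected), 92 with 4 or more (79.0 expected) and 100 with none (55.1 expected). Among Epi-like cells 2 of 9974 held 3 or more, against 2.56 expected.

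TE-like cells with an NR2F2 UMI held more of the 9 genes than cells without one in 3 of the 4 arms, which is given as a description, since the list was chosen in embryos for expression with NR2F2. The means were 1.87 and 0.273 genes in run 1 at 4 mM (38 and 11 cells) and 1.45 and 0.805 in run 2 at 4 mM (83 and 87 cells), against 0.25 and 0.429 in run 1 at 0 mM (4 and 14 cells) and 1.32 and 0.333 in run 2 at 0 mM (37 and 144 cells). Only 4 cells of the run 1 arm at 0 mM held NR2F2. Within NR2F2-positive cells of run 2 the means at the 2 doses were 1.45 at 4 mM and 1.32 at 0 mM.

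**Figure D5:**
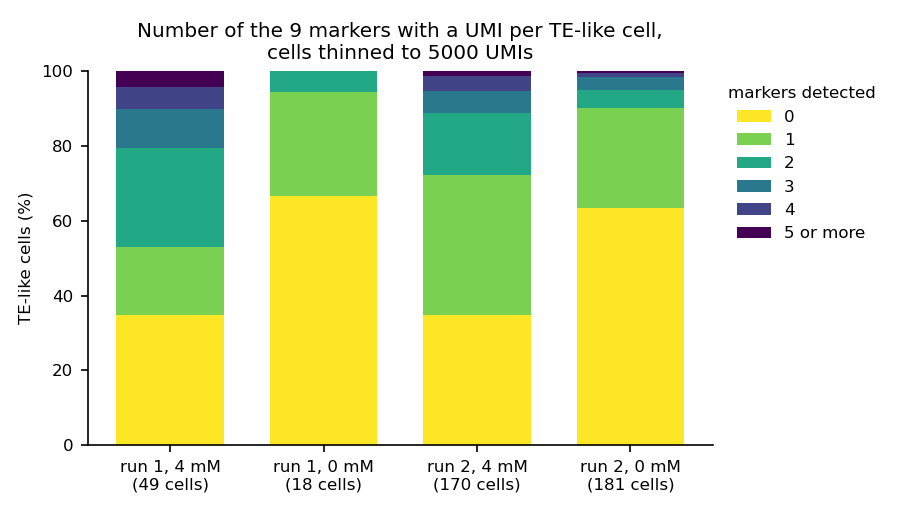
Share of thinned TE-like cells by the number of the 9 genes detected in the cell, stacked in percent for each arm, 4 mM left of 0 mM in each run. Cells with none make up 34.7% in both 4 mM arms, against 66.7% and 63.5% in the 0 mM arms.

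Over the 10 sums of cells (4 TE-like, 4 Epi-like, 2 aggregate), the genes whose levels ran most like those of the 9 were sought among 4598 genes, by Pearson's r of log2(CPM + 1). The highest were CCKBR and NR2F2 for TINAGL1 (r = 0.998 for both), SH3BP5 for CBLB (0.995), RPL5 for PGF (0.99), ARID3A for SP6 (0.986), FUT8 for MPP1 and CCR7 (0.985 and 0.981), C1orf52 for TENM3 (0.963) and TMEM199 for LGALS3 (0.951). These r describe 10 sums that fall mainly into TE-like and other sums, and they carry no test. TINAGL1 was the member whose nearest genes were other genes of the polar list, a list built around NR2F2.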

How the data were processed

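Naive H9 cells grown as aggregates or blastoids were profiled as 2 pooled single-cell libraries. The deposited files give counts of UMIs for every gene in every barcode. The authors obtained them with bcl2fastq 2.20.0.422 and Cell Ranger 6.1.2 against 10x Genomics' GRCh38 genome and worked on them in Seurat 4.3.0; counting per gene leaves overlapping transcripts to Cell Ranger's rules. Each hashtag's culture was taken from the hashtag tables beside them. There were 9431 and 15133 barcodes in run 1 and run 2.

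HTODemux (Seurat 5.3.0 in R 4.3.3) at a quantile of 0.99 gave 6012 and 10400 singlets in run 1 and run 2. Doublets (512 and 1142) and negative barcodes (2907 and 3591) were set aside; doublets within 1 hashtag were not sought. Cells with at most 15% mitochondrial UMIs and at least 7000 (run 1) or 5000 (run 2) UMIs were kept, as in the study, 3773 and 8874 of them. For each class, the UMIs of an arm's cells were added up, and these sums entered edgeR 4.0.16 (quasi-likelihood F test, TMM, filterByExpr, Benjamini-Hochberg over all genes, threshold 0.05), with the run, or for class comparisons the arm, in the model. The 9 genes that define the classes were left out of the class comparisons. Each SE given with an edgeR log2 change is the size of that change divided by the square root of its F statistic. The study itself tested cells, not sums. Shares were taken from cells thinned to 5000 UMIs; intervals are exact 95% Poisson or Clopper-Pearson intervals. Alternatives used RLE size factors, DESeq2 1.42.0, limma-voom (limma 3.58.1), no count filter, classes at over 2 times the UMIs of the other class, at least 10000 UMIs per cell, a hashtag quantile of 0.999, no run or arm term, and each arm or run left out (for the class comparison, the single-run fits were chosen after seeing the data). Dose fits within a class with an arm left out had no run term. The fits were tested on simulated data. Tables were handled with Python 3.11.15 (numpy 2.4.6, pandas 2.3.3, scipy 1.17.1) and drawn with matplotlib 3.10.9. Start-site sequences are from RefSeq (GRCh38.p14).

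The members, lists and tests were chosen with earlier results of these data known. Named were all 9 members, NR2F2 and CCKBR, up to 6 called genes per fit from the other polar genes and from the list of relatives and partners by size of change, and for each member with a mean of at least 10 CPM in TE-like sums the genes with the highest r among those at 20 CPM or more; the mural list is given by counts. Other differences in culture or handling between the runs were not analysed here.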

Additional observations from a re-analysis of the deposited data

Results flagged for a closer look

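The dose effect differed between the classes by the test of that difference for 3 named genes. The p-values of that test rest only on a spread pooled over genes. For TINAGL1 the log2 change at 4 mM over 0 mM was larger in TE-like than in Epi-like cells by 1.72 (edgeR adjusted p = 0.00677), and for LGALS3 by 1.69 (adjusted p = 0.00343). For LGALS1, a relative of LGALS3, it was larger by 0.96 (adjusted p = 0.0246). Both galectin genes were thus higher at 4 mM in TE-like cells, while LGALS1 was lower in TE-like than in Epi-like sums.

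Barcodes left out of the comparisons also held the 9 genes. Among the 413 run 1 hashtag doublets past the quality limits, 8 were TE-like, and the 9 genes summed to 293 CPM in them (86 UMIs, 95% interval 234 to 362), against 396 CPM in the run 1 TE-like arm at 4 mM and 65.7 CPM in that at 0 mM. In run 2, 68 TE-like hashtag doublets gave 79.6 CPM. In run 2 such a doublet joins the hashtags of both doses, and the hashtag pairs of the run 1 doublets were not analysed here.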

How the results depend on the processing

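In TE-like cells 4 of 9 members were called by dose. RLE size factors called 7, DESeq2 called 1 (5 members had no adjusted p there) and the fit without the run called 1. Leaving out each arm in turn gave 1 to 7, that is 1 without the run 1 and 7 without the run 2 arm at 4 mM, and 4 and 2 without the 0 mM arms of run 1 and run 2. With each member's top cell per arm removed, an alternative chosen after seeing the data, 5 were called, CCR7 among them (log2 2.23, adjusted p = 0.0123), and PGF had a log2 change of 1.07 (adjusted p = 0.0558). All 9 log2 changes were above 0 in every alternative in which the gene had an adjusted p. Over all genes the 131 calls became 209 with RLE, 20 with DESeq2, 236 with limma-voom, 203 at 10000 UMIs or more per cell and 29 to 197 with an arm left out. In Epi-like cells the 1 member called was lost (0 called) with DESeq2, limma-voom, the stricter hashtag quantile and every arm left out (0 to 0), and the 1478 calls over all genes became 206 with DESeq2 and 7 to 737 with an arm left out. Between classes 8 to 9 of 9 members (4515 to 6363 genes, 6348 in all arms) were called with an arm left out. LGALS3 was lost with DESeq2 (adjusted p = 0.184). For the difference of the dose effects, DESeq2 and limma-voom called 0 members and 26 and 21 genes, against 2 and 101, and leaving out an arm gave 0 to 3 and 13 to 98. The cause of these shifts was not tested, and dose fits within a class with an arm left out also lack the run term.

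Runs, not replicate numbers, pair the arms, so the replicate block is the run. Without it 1 member and 37 genes were called by dose in TE-like cells, and 0 members and 16 genes in Epi-like cells.

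Signs turned for changes that were not called. In Epi-like cells, leaving out an arm moved TINAGL1 between -0.49 and 0.85, CBLB between -0.16 and 0.13, LGALS3 between -0.20 and 0.02, PGF between -0.25 and 0.49 and CCKBR between -0.80 and 2.34, and CCKBR was -0.19 with stricter classes. The CCR7 difference of dose effects was 1.09 with limma-voom and -2.60 to 8.41 with an arm left out, and that of CCKBR -0.10 to 2.81. With 1 run alone the dose comparisons have no residual degree of freedom and were not tested. The class comparison within run 1 and within run 2, chosen after seeing the data, called 7 of 8 members tested (2824 genes) and 9 of 9 (5556 genes), and LGALS3 was the one lost. The run 1 TE-like arm at 0 mM holds at most 2 UMIs each of FYB1, LGALS3, SP6, PGF, MPP1 and CCR7. What part its low depth has in these counts was not tested.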
